A study of Mus musculus with 18 samples.

Results

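The nuclear pore complex and the nuclear envelope were followed through 48 genes in differentiated C2C12 cells, a mouse myoblast line that stops dividing and fuses into multinucleated myotubes when serum is withdrawn. The list held 28 nucleoporins and pore-associated proteins, leaving out Nup210 itself, and 20 genes of lamins, LEM-domain and LINC proteins and other envelope membrane proteins. A member was read from a probe set whose only gene symbol was that of the member, and where several such probe sets existed the brightest on average was taken. By this rule 43 of the 48 members were measured among 22180 genes, 24 of them pore members and 19 envelope members. Nup85, Nup62 and Syne2 were read only by probe sets that carry several symbols, and Nup35 and Tpr had no probe set under that symbol in the annotation used, so these 5 were not analysed here.

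Expression was measured on 18 arrays in 3 groups of 6, named Nup210 shRNA, Mef2c shRNA and control shRNA (a scrambled sequence). C2C12 myoblasts were grown in 20% fetal bovine serum and differentiated in 2% horse serum, and lentivirus carrying an shRNA was added 36 h after the start of differentiation. Cells were harvested 48 h after infection, so all 3 groups, controls included, were lentivirus-infected differentiating cultures of a single cell line. The labels give neither the hairpins nor whether a group's 6 arrays represent independent cultures, so p-values measure the spread between arrays, which may be technical. All values are log2 expression as deposited, where a difference of 1 is a doubling, and levels are compared only for the same probe set between groups.

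The nuclear pore complex is a ring-shaped channel through the nuclear envelope. Its scaffold is built of the Y complex on the outer faces and of an inner ring, it is held in the membrane by anchor proteins, and its transport barrier is formed by nucleoporins rich in phenylalanine-glycine repeats. Under the inner nuclear membrane lies the lamina, a mesh of lamin filaments to which LEM-domain proteins tie chromatin, and LINC complexes of SUN proteins and nesprins couple the lamina to the cytoskeleton, in muscle fibres also to position nuclei. Nup210 encodes a pore membrane glycoprotein that is made when C2C12 cells differentiate, and Mef2c a transcription factor that drives muscle genes.

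Of the 43 measured members 42 lay above background, taken as a highest group mean over 5.47, the 95th percentile of the means of 1390 olfactory and vomeronasal receptor genes. The exception was Nup188, with a mean of 4.73. The arrays of a group lay close together for most members: the median residual SD was 0.0746, against 0.104 for all genes above background, with Rae1 the steadiest (0.0444) and Ranbp2 the most variable (0.207). Mef2c stood at 17.9% of control in the Mef2c shRNA arrays (adjusted p = 2.8e-11), whereas the dim Nup210 probe set had a lowest, median and highest value of 5.54, 5.63 and 5.79 in Nup210 shRNA arrays and 5.57, 5.79 and 5.81 in control arrays. Those ranges overlapped and the difference was -0.10 (adjusted p = 0.40). Set against the Mef2c shRNA arrays, where it had 5.79, 5.82 and 6.08, the probe set was lower in the Nup210 shRNA arrays (-0.23, adjusted p = 0.0178). Since the comparison with control did not separate the groups, the name Nup210 shRNA is used throughout as the arrays' label. Markers of the labelled cells were bright, with Myog at a mean of 12.15 and Mymk, a fusion protein, at 12.77, while at most 1 marker each of adipocytes, macrophages and endothelium lay above background.

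Most pore and envelope genes did not pass the test in either comparison with control. A gene was called at an adjusted p under 0.05 in a limma fit of all 22180 genes and 18 arrays. In the Nup210 shRNA arrays 2 members rose, Aaas and Syne1, and 4 fell, Seh1l, Gle1, Lmnb2 and Syne3, against background rates over all genes of 3.05% higher and 5.11% lower, or 4.58% and 8.31% among genes above background. As shares of the 43 members these are 4.65% and 9.30%, close to those rates. In the Mef2c shRNA arrays 2 members rose, Nup214 and Syne1, and 8 fell, Nup43, Nup107, Seh1l, Nup93, Nup54, Lmnb1, Lmnb2 and Nrm. The background rates there were 4.34% higher and 6.42% lower over all genes and 6.5% and 10.5% among genes above background, beside 4.65% and 18.6% of the members.

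Set directly against each other, the shRNA groups differed at 12 members. Nup43, Nup93, Aaas, Nup54, Rae1, Lmna, Lmnb1 and Nrm were higher, and Nup214, Gle1, Nup50 and Syne3 lower, in the Nup210 shRNA arrays than in the Mef2c shRNA arrays. The rates over all genes were 7.1% higher and 6.93% lower, and among genes above background 11.4% and 10.8%. The difference was positive for 34 of the 43 members, against 10843 of 22180 genes. Both comparisons with control use the same 6 control arrays, so values that move alike in them are given side by side and not counted as agreement. In all, 16 members were called in at least 1 of the 3 comparisons and 27 in none. The matching share of all genes was not counted, so 16 of 43 is not read as high or low.

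The differences were small. The largest of any member from control was -0.34 (Syne3, Nup210 shRNA) and the largest between the shRNA groups -0.45 (Syne3). Of the 37 members not called with Nup210 shRNA, 35 had a 95% confidence interval within a 1.2-fold change either way, the exceptions being Nup188 and Ranbp2. With Mef2c shRNA this held for 32 of 33, the exception being Lbr. The median difference of the pore members was 0.04 with Nup210 shRNA and -0.05 with Mef2c shRNA, beside 0.02 over all genes in each, and that of the envelope members was 0.00 and -0.01.

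**Figure D1:**
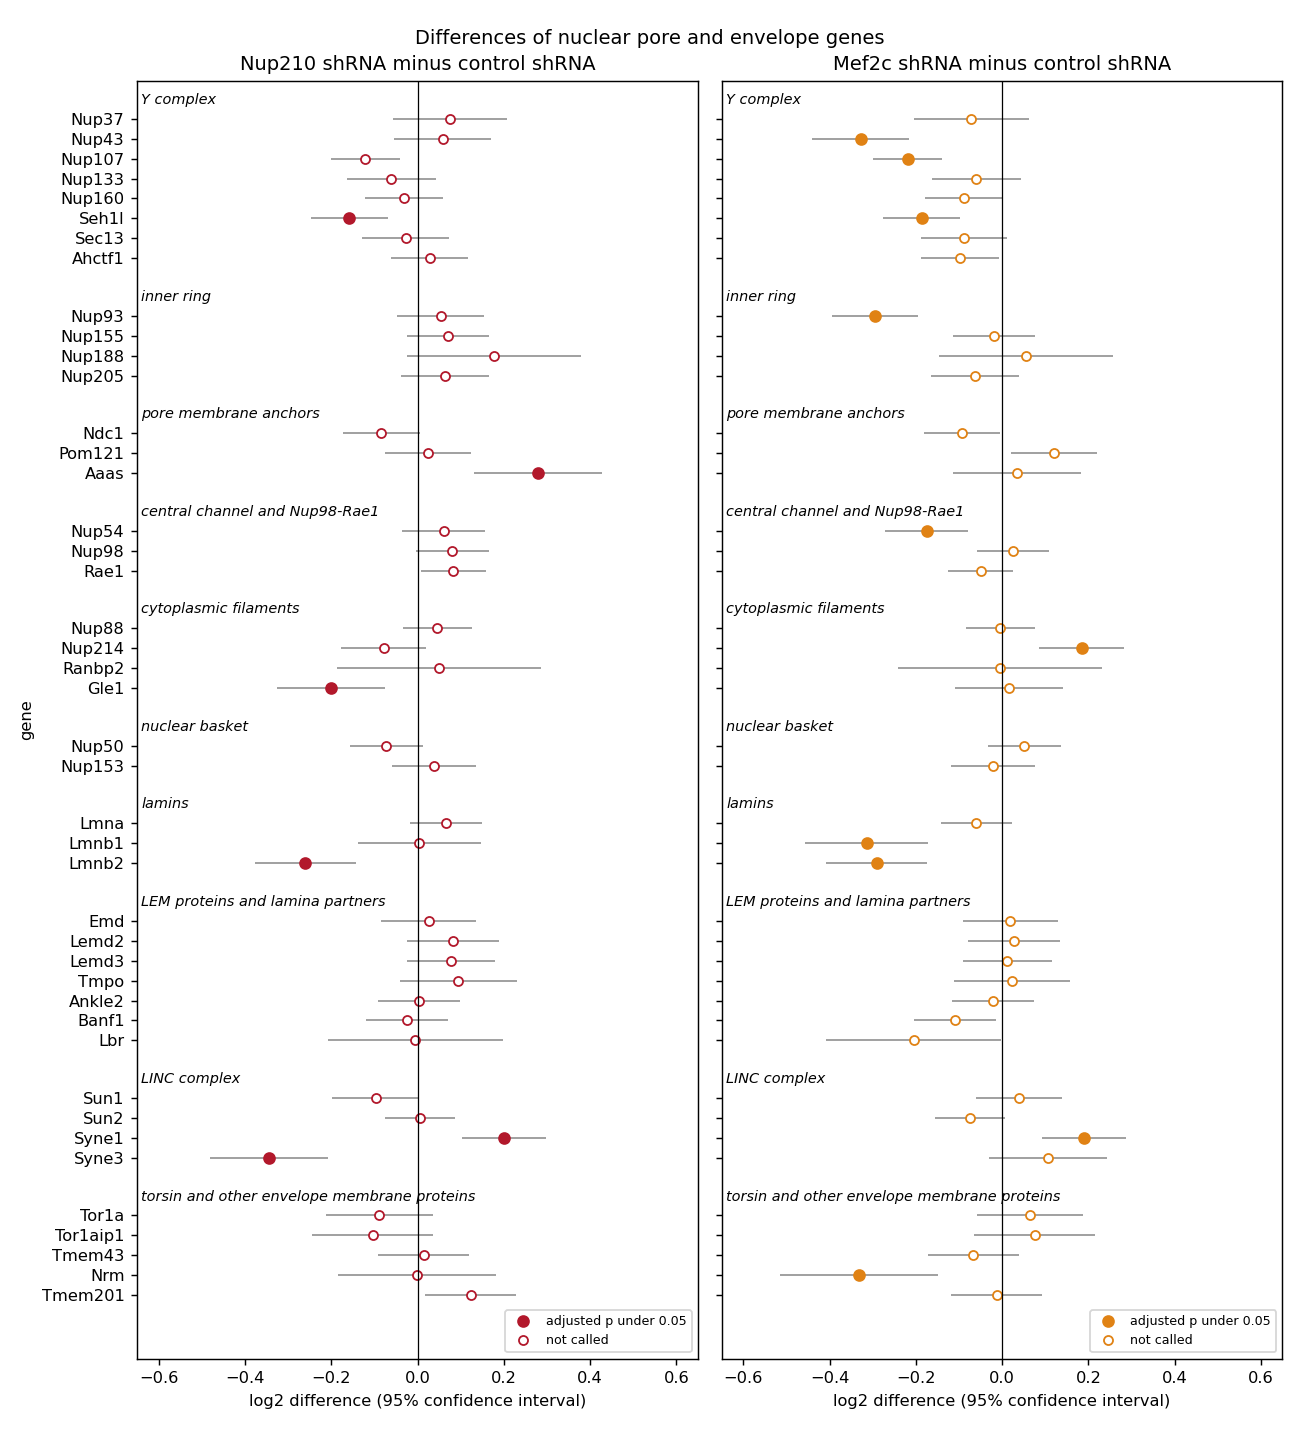
Log2 difference from control shRNA (horizontal axis) with its 95% confidence interval for the 43 measured members, grouped by subcomplex, for Nup210 shRNA (left) and Mef2c shRNA (right). Filled points passed an adjusted p of 0.05: 6 on the left, 4 of them below 0, and 10 on the right, 8 of them below 0.

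The start regions of members that fell with Mef2c shRNA are shown because these genes moved the same way. RefSeq's promoter table (GRCm38.p6) held windows for 39 of the 43 measured members, among them 5 of the 8 that fell (Nup93, Nup107, Nup54, Lmnb2 and Nrm), and the 150 bases before each of their 50 annotated starts were searched on both strands. Printed 5′ to 3′ on the gene's strand are the bases that also lie outside RefSeq's extent of the gene, with motif matches in capitals, for Nup93 (chr8:94214414-94214563, plus strand), Nup107 (chr10:117792737-117792855, minus), Nup54 (chr5:92435260-92435349, minus) and Lmnb2 (chr10:80918246-80918395, minus). The window of Nrm, with no motif match, and the second windows of Nup93, with a CCAAT match, and of Lmnb2, with none, are not printed. They lie wholly or mostly inside the gene's extent.
Nup93: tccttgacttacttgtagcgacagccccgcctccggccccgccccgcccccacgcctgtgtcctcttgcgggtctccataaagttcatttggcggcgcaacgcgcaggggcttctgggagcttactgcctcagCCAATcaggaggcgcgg
Nup107: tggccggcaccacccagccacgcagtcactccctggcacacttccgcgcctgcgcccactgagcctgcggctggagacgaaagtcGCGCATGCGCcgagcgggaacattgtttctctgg
Nup54: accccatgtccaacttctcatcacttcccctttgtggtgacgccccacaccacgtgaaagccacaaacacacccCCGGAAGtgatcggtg
Lmnb2: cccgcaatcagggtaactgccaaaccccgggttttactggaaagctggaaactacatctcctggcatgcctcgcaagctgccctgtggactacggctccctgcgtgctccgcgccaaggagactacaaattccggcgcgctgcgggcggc
The Nup93 window holds CCAAT, the Nup107 window the NRF1 motif GCGCATGCGC, the Nup54 window the ETS motif CCGGAAG, and the Lmnb2 window none of the motifs searched. Nup107 had a further ETS match nearer its start, in bases not printed. Over all members, CCAAT was in 17 of 50 windows (34%, against 24.5% of all 32851 windows), CCGGAAG in 9 (18%, against 5.52%), the CHR element TTTGAA of cell cycle genes in 8 (16%, against 9.07%) and GCGCATGCGC in 2 (4%, against 0.645%). Windows of a gene can overlap: the 2 Nup37 windows share TTTGAA and CCAAT matches, which count in both. Counted by gene, TTTGAA was in 7 of the 34 windowed members that did not fall. The MEF2 consensus and the E2F motifs TTTCGCGC and TTTGGCGC were in 0 of 50, against 1.67% and 0.423% of all windows; E2F and NRF1 matches could share the letters GCGC. A match describes letters only. None of the 5 windowed members that fell held TTTGAA, while CCAAT was in 1 of them and in 14 of the other 34. CCGGAAG was in 2 and 6, and GCGCATGCGC in 1 and 1. Counts over 5 genes are too small to tell these groups apart.

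The Y complex is the outer scaffold of the pore, and its members Nup107, Nup133, Nup160, Nup37, Nup43, Seh1l, Sec13 and Ahctf1 were measured. With Mef2c shRNA 3 of the 8 fell and none rose, beside 6.42% and 4.34% of all genes. All 8 differences lay below 0, as did 9620 of 22180 genes and 6389 of the 13376 above background, and their median was -0.09 (0.02 over all genes). With Nup210 shRNA 1 of the 8 fell and none rose, beside 5.11% and 3.05% of all genes, with a median of -0.03. Nup37, Nup133, Nup160, Sec13, which also coats transport vesicles, and Ahctf1, the chromatin-binding subunit that seeds new pores, were called in no comparison. Their differences from control ran from -0.06 to 0.08 with Nup210 shRNA and from -0.10 to -0.06 with Mef2c shRNA.

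Nup43, a small subunit of the Y complex that also sits at kinetochores, had a lowest, median and highest value of 7.57, 7.67 and 7.72 in Nup210 shRNA arrays, 7.13, 7.24 and 7.38 in Mef2c shRNA arrays and 7.43, 7.58 and 7.71 in control arrays. All 6 Mef2c shRNA arrays lay below every array of both other groups. Its level with Mef2c shRNA was 79.7% of control (-0.33 ± 0.05 SE, adjusted p = 4.6e-04), and with Nup210 shRNA it stood 0.39 above the Mef2c shRNA arrays (adjusted p = 5.6e-05) and 0.06 from control (adjusted p = 0.617).

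Nup107, a stalk subunit needed to build the Y complex, had 8.39, 8.46 and 8.48 in Nup210 shRNA arrays, 8.27, 8.37 and 8.42 in Mef2c shRNA arrays and 8.51, 8.56 and 8.65 in control arrays. Every array of either shRNA lay below every control array. The fall passed the test with Mef2c shRNA (-0.22 ± 0.04, adjusted p = 7.9e-04) and the difference with Nup210 shRNA did not (-0.12, adjusted p = 0.0583). The shRNA groups were not shown to differ from each other (0.10, adjusted p = 0.109).

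Seh1l, which serves the Y complex and also a regulator of amino acid signalling at lysosomes, had 9.73, 9.77 and 9.92 in Nup210 shRNA arrays, 9.69, 9.77 and 9.83 in Mef2c shRNA arrays and 9.87, 9.95 and 10.01 in control arrays. The Mef2c shRNA arrays lay below all controls, and 1 Nup210 shRNA array reached into the control range. It fell by 0.16 on the log2 scale with Nup210 shRNA (adjusted p = 0.0256) and by 0.19 with Mef2c shRNA (adjusted p = 0.00674). Leaving out Nup210 shRNA array 2 or 4 took the Nup210 shRNA call away (adjusted p = 0.0551 and 0.0594), and so did leaving out control array 1, 3 or 6 (0.0545, 0.0586 and 0.0624). It was lost too with only the compared groups (0.053), without Nup210 shRNA arrays 2, 4 and 5 (0.0858) and without control arrays 4 and 6 (0.0905). A second Seh1l probe set lay below background (mean 3.33) with differences of 0.02 and -0.01, and on the mean of both probe sets neither call was made: the difference was -0.07 with Nup210 shRNA (adjusted p = 0.747) and -0.10 with Mef2c shRNA (adjusted p = 0.595).

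In the inner ring, which lines the channel between the scaffold's faces, Nup93 alone passed the test, and only with Mef2c shRNA among the comparisons with control. Nup93, the subunit that recruits the central channel proteins, had 9.03, 9.17 and 9.31 in Nup210 shRNA arrays, 8.74, 8.84 and 8.87 in Mef2c shRNA arrays and 9.02, 9.14 and 9.19 in control arrays. No Mef2c shRNA array reached the range of either other group. The level with Mef2c shRNA was 81.5% of control (-0.29 ± 0.05, adjusted p = 4.4e-04), and Nup210 shRNA arrays stood 0.35 above Mef2c shRNA arrays (adjusted p = 5.1e-05). The scaffold subunits Nup155 and Nup205 differed from control by 0.07 and 0.06 with Nup210 shRNA and by -0.02 and -0.06 with Mef2c shRNA, none of them called. Nup188, dimmer than the background level, had 4.68, 4.85 and 4.999 in Nup210 shRNA arrays, 4.45, 4.75 and 4.90 in Mef2c shRNA arrays and 4.21, 4.75 and 4.85 in control arrays. Its ranges overlapped, and the interval of its difference ran from -0.02 to 0.38 with Nup210 shRNA.

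Among the pore membrane anchors and their partner Aaas, Aaas was called and the transmembrane proteins Ndc1 and Pom121 were not. Aaas encodes ALADIN, a protein held at the pore by Ndc1 and mutated in human Allgrove syndrome. It had 8.74, 8.93 and 9.14 in Nup210 shRNA arrays, 8.53, 8.72 and 8.82 in Mef2c shRNA arrays and 8.50, 8.67 and 8.76 in control arrays. All 6 Nup210 shRNA arrays lay above the control mean, though the lowest fell within the control range. Aaas rose to 121% of control with Nup210 shRNA (0.28 ± 0.07, adjusted p = 0.0177), and exceeded the Mef2c shRNA arrays by 0.25 (adjusted p = 0.0244). Nup210 shRNA arrays 2, 4 and 5 had the lowest array weights (0.621 to 0.744). Without them the difference from control was 0.17 (adjusted p = 0.326) and that from Mef2c shRNA 0.135 (adjusted p = 0.345). An unequal-variance test called neither (adjusted p = 0.0594 and 0.0756). The difference from Mef2c shRNA no longer passed when Nup210 shRNA array 2 or 5 (adjusted p = 0.0608 and 0.0584) or Mef2c shRNA array 1 or 3 (0.0592 and 0.0615) was left out, or when only the compared groups were fitted (0.0534).

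Pom121 had 8.23, 8.32 and 8.48 in Nup210 shRNA arrays, 8.30, 8.45 and 8.52 in Mef2c shRNA arrays and 8.23, 8.32 and 8.37 in control arrays. Its ranges overlapped in all 3 groups, and its difference from control was 0.02 with Nup210 shRNA and 0.12 with Mef2c shRNA (adjusted p = 0.125). Ndc1 differed by -0.08 and -0.09, neither of them called.

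In the central channel, Nup54, a repeat nucleoporin that partners Nup62, had 8.17, 8.23 and 8.35 in Nup210 shRNA arrays, 7.84, 8.04 and 8.09 in Mef2c shRNA arrays and 8.14, 8.16 and 8.25 in control arrays. The Mef2c shRNA arrays lay below all arrays of the other groups. With Mef2c shRNA the difference from control was -0.17 ± 0.05 (adjusted p = 0.0181), and without control arrays 4 and 6 it was -0.175 (adjusted p = 0.0647). Nup210 shRNA arrays exceeded Mef2c shRNA arrays by 0.24 (adjusted p = 0.00138). Rae1, an mRNA export factor bound by Nup98, had 11.15, 11.20 and 11.33 in Nup210 shRNA arrays, 11.06, 11.09 and 11.12 in Mef2c shRNA arrays and 11.10, 11.14 and 11.16 in control arrays. Controls overlapped each shRNA group while the shRNA groups did not overlap each other. Rae1 was called between them alone (0.13, adjusted p = 0.0169). Its difference was 0.0899 without Nup210 shRNA arrays 2, 4 and 5 (adjusted p = 0.171) and 0.133 with only the compared groups (adjusted p = 0.0658). Nup98 differed from control by 0.08 and 0.03 with Nup210 and Mef2c shRNA, without a call.

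On the cytoplasmic face the filament proteins Nup214 and Gle1 were called in different comparisons with control, and Nup88 and Ranbp2 in none. Nup214, which binds the mRNA export helicase and the exportin Xpo1, had 8.46, 8.60 and 8.70 in Nup210 shRNA arrays, 8.79, 8.86 and 8.95 in Mef2c shRNA arrays and 8.55, 8.69 and 8.76 in control arrays. Here the Mef2c shRNA arrays were the highest, above every other array. Nup214 was the only pore member that rose with Mef2c shRNA (0.18 ± 0.05, adjusted p = 0.0146). Without control arrays 4 and 6 its difference was 0.192 (adjusted p = 0.0507). Nup210 shRNA arrays stood 0.26 below Mef2c shRNA arrays (-0.26, adjusted p = 6.2e-04).

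Gle1, the activator of the mRNA export helicase, had 8.90, 9.05 and 9.24 in Nup210 shRNA arrays, 9.24, 9.28 and 9.38 in Mef2c shRNA arrays and 9.17, 9.31 and 9.36 in control arrays. Nup210 shRNA arrays 3 and 5 reached the control range, and array 3 alone the Mef2c shRNA range, while the other 4 lay below every array of both groups. The difference was -0.20 ± 0.06 from control (adjusted p = 0.0458) and -0.22 from Mef2c shRNA (adjusted p = 0.0194). The first call was lost on leaving out any of 14 of the 18 arrays, with adjusted p from 0.0501 to 0.109, and also with only the compared groups (0.11), renewed quantile normalization (0.0779) or an unequal-variance test (0.145). The second was lost without Nup210 shRNA array 1 (0.0502) and with the unequal-variance test (0.0867). Without Nup210 shRNA arrays 2, 4 and 5 neither call was made (adjusted p = 0.212 from control and 0.0832 from Mef2c shRNA). Nup88, the partner of Nup214, differed from control by 0.05 with Nup210 shRNA and by less than 0.01 with Mef2c shRNA. Ranbp2, the SUMO ligase of the filaments, ran from 9.96 to 10.79 within the Mef2c shRNA group, array 6 being the low one.

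In the nuclear basket Nup50, which helps release imported cargo, had 8.84, 8.87 and 8.95 in Nup210 shRNA arrays, 8.93, 9.02 and 9.07 in Mef2c shRNA arrays and 8.87, 8.97 and 9.04 in control arrays. The ranges of all 3 groups overlapped. It was called between the shRNA groups (-0.12, adjusted p = 0.0481), a call lost without any of Nup210 shRNA arrays 1, 2, 3, 4 and 6, Mef2c shRNA arrays 1, 3, 5 and 6 and control arrays 1, 2, 3 and 6, with adjusted p from 0.0526 to 0.103. It was also lost with only the compared groups (0.0893), median centring (0.136) and array weights (0.064), and without Nup210 shRNA arrays 2, 4 and 5 (0.121) or control arrays 4 and 6 (0.0558). The mean of all probe sets gave 0.0502 at an unchanged difference of -0.124. Nup50 has 1 probe set, so only values of other genes changed there. Nup153, the other basket member measured, differed from control by 0.04 with Nup210 shRNA and by -0.02 with Mef2c shRNA.

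**Figure D2:**
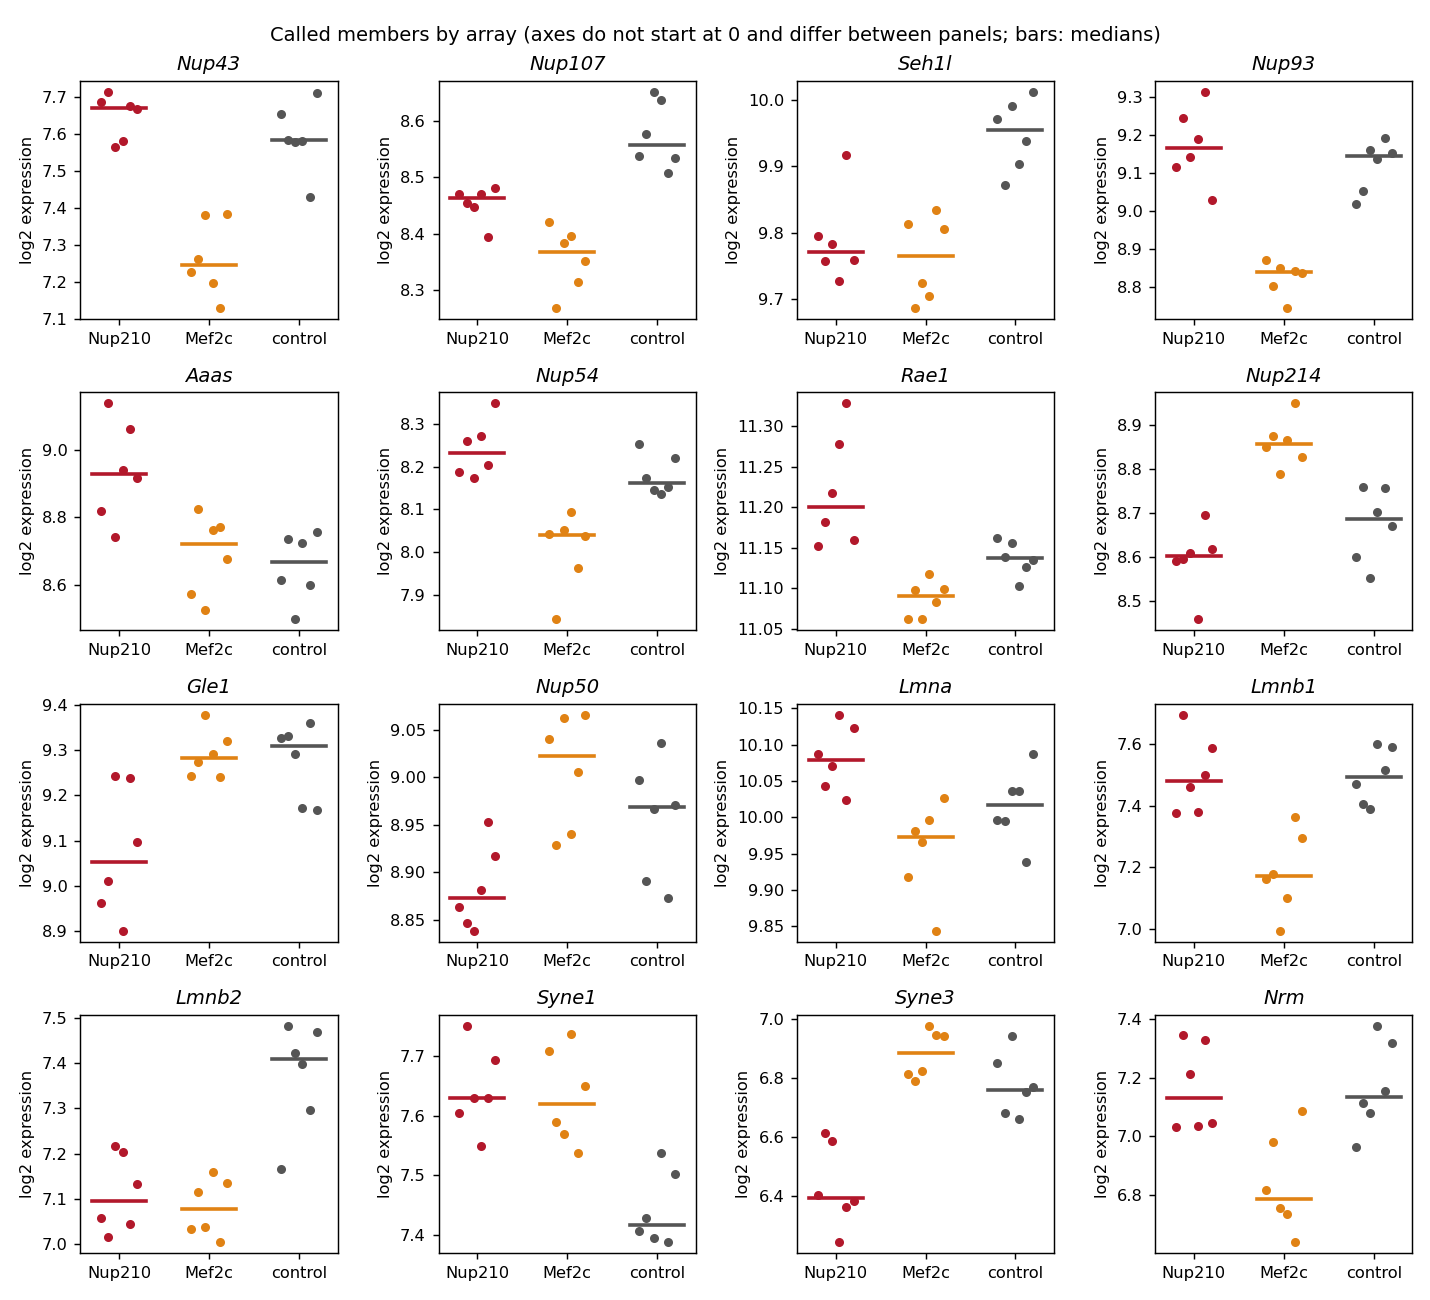
Log2 expression of the 16 members called in at least 1 comparison, each point an array and each bar a group median, with Nup210 shRNA (red), Mef2c shRNA (orange) and control shRNA (grey) from left to right. Axes differ between panels and do not start at 0. Nup43, Nup93, Nup54 and Lmnb1 show the Mef2c shRNA arrays below both other groups, and Syne3 the Nup210 shRNA arrays below both.

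Both B-type lamin genes fell with Mef2c shRNA and Lmnb2 alone of them with Nup210 shRNA, while the A-type lamin gene was not called against control. Lamins are the intermediate filaments of the lamina, with Lmnb1 and Lmnb2 expressed in most cells and Lmna raised in differentiated tissue. Of these 3 genes 1 fell with Nup210 shRNA and 2 with Mef2c shRNA, with no rises, beside 5.11% and 6.42% of all genes called lower.

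Lmnb1 had 7.38, 7.48 and 7.70 in Nup210 shRNA arrays, 6.99, 7.17 and 7.36 in Mef2c shRNA arrays and 7.39, 7.49 and 7.60 in control arrays. The Mef2c shRNA arrays lay below all others, and the other groups covered the same range. Lmnb1 stood at 80.5% of control with Mef2c shRNA (-0.31 ± 0.07, adjusted p = 0.00465) and at 100.3% with Nup210 shRNA, a difference of 0.32 between the shRNA groups (adjusted p = 0.0029).

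Lmnb2 had 7.02, 7.10 and 7.22 in Nup210 shRNA arrays, 7.01, 7.08 and 7.16 in Mef2c shRNA arrays and 7.17, 7.41 and 7.48 in control arrays. The shRNA groups covered nearly the same range, and control array 1 was the lowest control, just above the Mef2c shRNA arrays. The difference from control was -0.26 ± 0.06 with Nup210 shRNA (adjusted p = 0.00586; 0.0894 without Nup210 shRNA arrays 2, 4 and 5) and -0.29 ± 0.06 with Mef2c shRNA (adjusted p = 0.00189). Between the shRNA groups it was 0.03, with a 95% confidence interval from -0.09 to 0.15.

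Lmna had 10.02, 10.08 and 10.14 in Nup210 shRNA arrays, 9.84, 9.97 and 10.03 in Mef2c shRNA arrays and 9.94, 10.02 and 10.09 in control arrays, with overlap throughout. It was called only between the shRNA groups (0.13, adjusted p = 0.0396), and that call was lost on leaving out Nup210 shRNA array 1, 3, 4 or 6 or Mef2c shRNA array 1, 2, 3 or 5, with adjusted p from 0.0531 to 0.0911. Fitting only the compared groups (0.0915), median centring (0.0585) and leaving out Nup210 shRNA arrays 2, 4 and 5 (0.0938) also ended it.

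None of the 7 LEM-domain genes and lamina partners was called in any comparison. They comprise Emd (emerin), Lemd2, Lemd3, Tmpo and Ankle2, which carry the LEM fold that binds the chromatin protein encoded by Banf1, and Lbr, a membrane protein that holds heterochromatin and the B-type lamina. Their differences from control ran from -0.02 to 0.09 with Nup210 shRNA, the largest being that of Tmpo, and from -0.21 to 0.03 with Mef2c shRNA. Tmpo, whose products include nucleoplasmic and membrane forms of LAP2, had 9.33, 9.39 and 9.63 in Nup210 shRNA arrays, 9.22, 9.37 and 9.51 in Mef2c shRNA arrays and 9.28, 9.32 and 9.52 in control arrays, with wide overlap. Lbr, at the low end of the range with Mef2c shRNA, had 8.74, 8.82 and 9.12 in Nup210 shRNA arrays, 8.45, 8.59 and 9.13 in Mef2c shRNA arrays and 8.80, 8.86 and 8.97 in control arrays. Mef2c shRNA array 1 was the highest of its group and the other 5 covered lower levels, so the interval of the difference ran from -0.41 to just under 0 (adjusted p = 0.21). Emd differed from control by 0.03 and 0.02.

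LINC complex genes moved in both directions. Sun1 and Sun2, the inner membrane partners, were not called; Sun1 differed from control by -0.10 with Nup210 shRNA and by 0.04 with Mef2c shRNA, and Sun2 by 0.01 and -0.07. Syne3 encodes nesprin-3, which links the nucleus to intermediate filaments through plectin. It had 6.25, 6.39 and 6.62 in Nup210 shRNA arrays, 6.79, 6.89 and 6.98 in Mef2c shRNA arrays and 6.66, 6.76 and 6.94 in control arrays. All 6 Nup210 shRNA arrays lay below every other array, and Mef2c shRNA and control arrays overlapped. Its level with Nup210 shRNA was 78.8% of control (-0.34 ± 0.07, adjusted p = 0.00231), and it kept its call in all 30 alternatives run. Relative to Mef2c shRNA the difference was -0.45 (adjusted p = 8.5e-05), while Mef2c shRNA differed from control by 0.11 (adjusted p = 0.365).

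Syne1 encodes nesprin-1, the giant nesprin that anchors nuclei in muscle fibres, and its probe sets did not move alike. Its brightest probe set had 7.55, 7.63 and 7.75 in Nup210 shRNA arrays, 7.54, 7.62 and 7.74 in Mef2c shRNA arrays and 7.39, 7.42 and 7.54 in control arrays. The Nup210 shRNA arrays lay above all controls and the Mef2c shRNA arrays met them at the edge. On this probe set the gene rose by 0.20 with Nup210 shRNA (adjusted p = 0.0103; 0.0742 without Nup210 shRNA arrays 2, 4 and 5) and by 0.19 with Mef2c shRNA (adjusted p = 0.0115; 0.061 after median centring).

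Syne1 has 59 probe sets named for it alone, 39 of them above background, and 37 of the 59 had a negative difference with Nup210 shRNA and 31 with Mef2c shRNA. Their median difference was -0.04 with Nup210 shRNA and -0.01 with Mef2c shRNA, and -0.11 and -0.03 over those above background. With p adjusted over all singly named probe sets, the brightest was the only one called higher in either comparison, and another, with a mean of 5.60, was called lower with Nup210 shRNA (-0.31, adjusted p = 0.0161). The next brightest (mean 7.15) differed by -0.11 and -0.10, neither of them called. Of the 39 above background, 11 were positive and 28 negative with Nup210 shRNA, and 14 and 25 with Mef2c shRNA. The mean of all 59 was -0.04 with Nup210 shRNA (adjusted p = 0.529) and 0.00 with Mef2c shRNA (adjusted p = 0.978). The called rise is thus that of a single probe set and not of the gene's average.

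**Figure D3:**
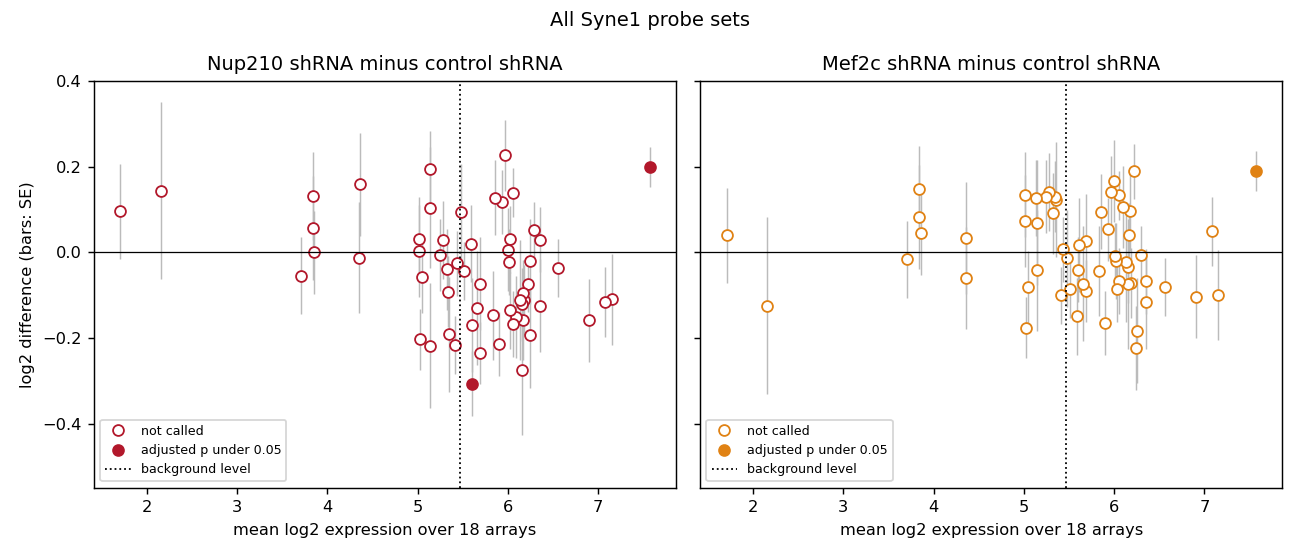
Log2 difference from control shRNA (vertical axis, bars are SE) of the 59 Syne1 probe sets against their mean log2 expression over 18 arrays, for Nup210 shRNA (left) and Mef2c shRNA (right), with the background level of 5.47 dotted. The brightest probe set, at 7.57, is the filled point above 0 in both panels, and most of the bright probe sets lie below 0 on the left.

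Of the torsin and other envelope membrane proteins, Nrm fell with Mef2c shRNA and Tor1a, its activator Tor1aip1, Tmem43 and Tmem201 were not called. Nrm encodes nurim, a multispanning protein of the inner nuclear membrane. It had 7.03, 7.13 and 7.35 in Nup210 shRNA arrays, 6.64, 6.79 and 7.09 in Mef2c shRNA arrays and 6.97, 7.14 and 7.38 in control arrays. The Mef2c shRNA arrays overlapped the controls at their upper end, and all 6 lay below the control mean. Its level with Mef2c shRNA was 79.5% of control (-0.33 ± 0.09, adjusted p = 0.0177; 0.137 without control arrays 4 and 6), and Nup210 shRNA arrays stood 0.33 above Mef2c shRNA arrays (adjusted p = 0.0142; 0.144 without Nup210 shRNA arrays 2, 4 and 5). Tmem201, an inner membrane protein that takes part in moving nuclei, had 7.30, 7.36 and 7.48 in Nup210 shRNA arrays, 7.17, 7.25 and 7.29 in Mef2c shRNA arrays and 7.11, 7.28 and 7.39 in control arrays. The Nup210 shRNA arrays lay above the Mef2c shRNA arrays and overlapped the controls (0.12 from control, adjusted p = 0.163). The torsin gene Tor1a, Tor1aip1 and Tmem43 differed from control by -0.09, -0.10 and 0.01 with Nup210 shRNA and by 0.06, 0.08 and -0.07 with Mef2c shRNA.

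**Figure D4:**
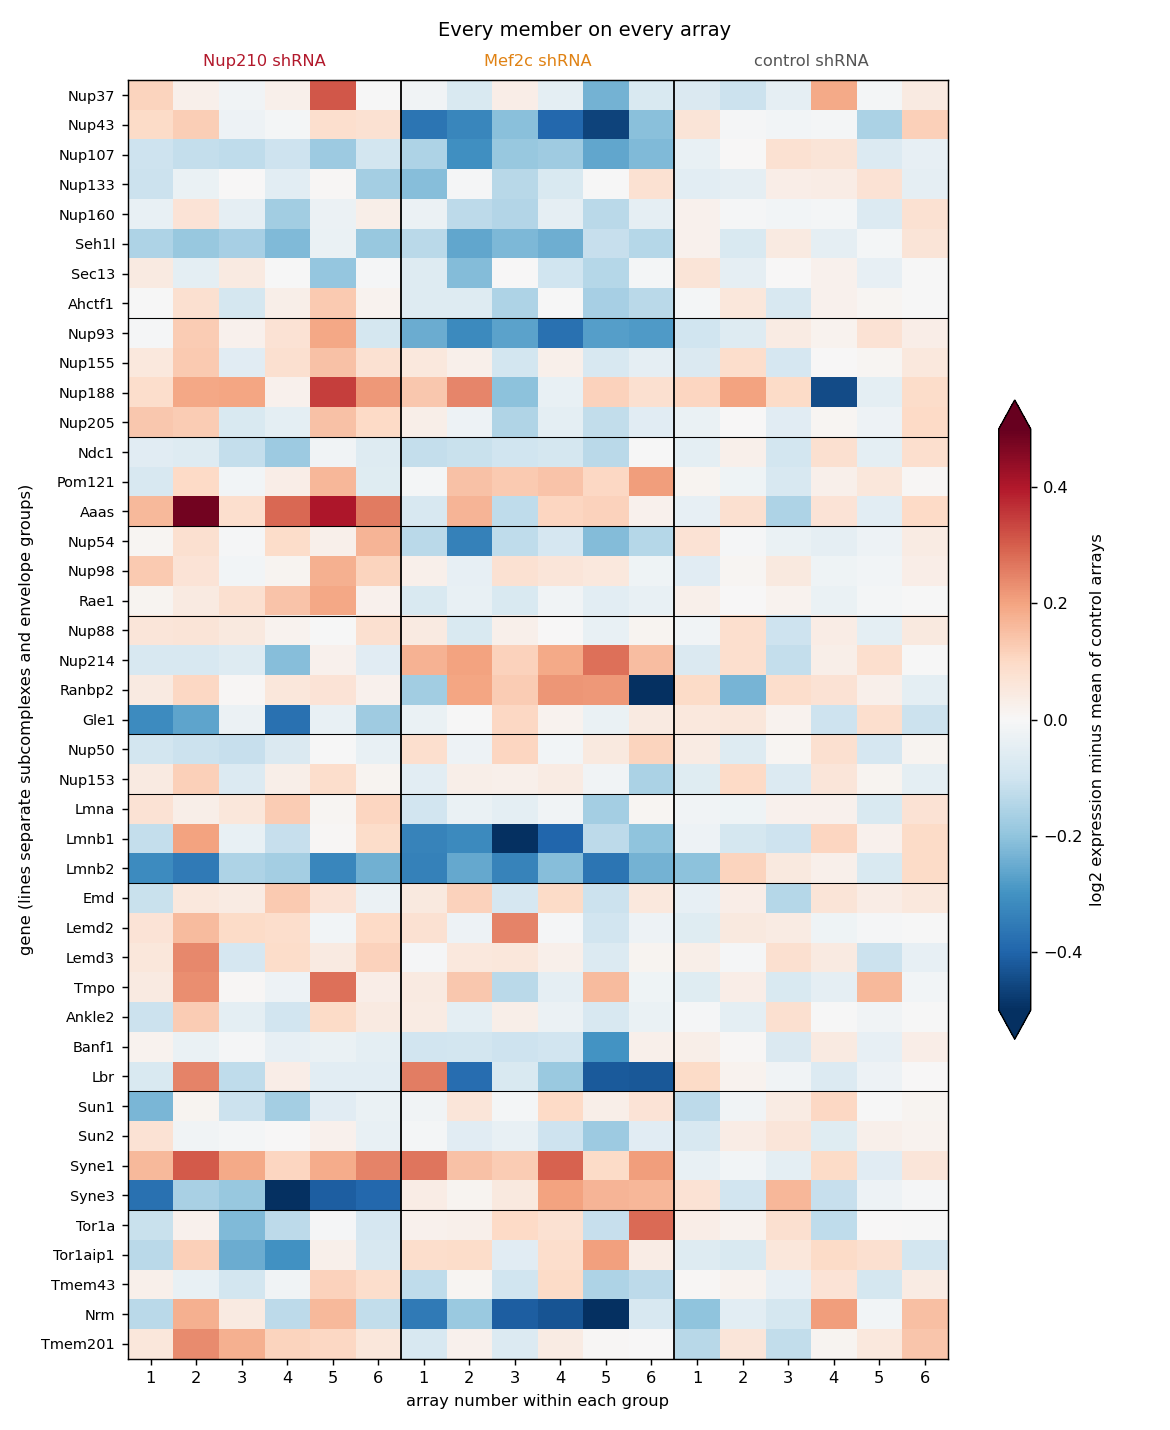
Log2 expression of each of the 43 measured members on each of the 18 arrays, minus that gene's mean over the 6 control arrays (colour scale, clipped at the ends). Black lines separate subcomplexes and groups. All 6 Mef2c shRNA arrays are blue, by 0.08 or more, for Nup43, Nup107, Seh1l, Nup93, Nup54, Lmnb1, Lmnb2 and Nrm, and so are all 6 Nup210 shRNA arrays for Nup107, Lmnb2 and Syne3.

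The pore works with soluble transport factors, which carry cargo through it, and these were taken as a list of their own. The counts of the lists that follow stand beside 3.05% of all genes higher and 5.11% lower with Nup210 shRNA and 4.34% and 6.42% with Mef2c shRNA (4.58%, 8.31%, 6.5% and 10.5% of genes above background), and their medians beside 0.02 over all genes in each comparison. Of 17 measured import receptors and adaptors, 1 rose and 3 fell with Nup210 shRNA (median 0.02), and none rose and 7 fell with Mef2c shRNA (median -0.05). Kpna3, an importin alpha adaptor that binds nuclear localization signals, had 9.67, 9.72 and 9.88 in Nup210 shRNA arrays, 10.29, 10.36 and 10.41 in Mef2c shRNA arrays and 10.42, 10.54 and 10.57 in control arrays. The 3 groups did not overlap. Kpna3 differed from control by -0.77 ± 0.05 with Nup210 shRNA (adjusted p = 1.5e-08) and by -0.16 with Mef2c shRNA (adjusted p = 0.0262), and by -0.61 between the shRNA groups (adjusted p = 5.6e-08).

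Kpna2, another importin alpha and one that is abundant in dividing cells, had 7.83, 8.04 and 8.13 in Nup210 shRNA arrays, 7.42, 7.55 and 7.59 in Mef2c shRNA arrays and 7.78, 7.96 and 8.13 in control arrays. The Mef2c shRNA arrays lay apart below the rest (-0.42 from control, adjusted p = 1.9e-04). The importins Ipo7 and Ipo9 fell with either shRNA, Ipo7 by 0.24 with Nup210 shRNA and by 0.25 with Mef2c shRNA, and Ipo9 by 0.25 with each. Ipo11 was 0.23 lower with Mef2c shRNA (-0.23, adjusted p = 0.00174), and the transportin Tnpo2 rose by 0.19 with Nup210 shRNA (adjusted p = 0.0331).

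Of 10 export receptors, 1 rose and 1 fell with Nup210 shRNA (median 0.01), and none rose and 3 fell with Mef2c shRNA (median -0.13). Cse1l, which returns importin alpha to the cytoplasm, fell by 0.23 and by 0.20 with Nup210 and Mef2c shRNA (adjusted p = 0.00114 and 0.00282). With Mef2c shRNA Xpot, the tRNA exporter, fell by 0.38 (adjusted p = 2.8e-04) and Xpo1, the main protein exporter, by 0.22 (adjusted p = 0.00163). Nxt2, a cofactor of mRNA export, rose by 0.16 with Nup210 shRNA (adjusted p = 0.0423). Of 5 measured genes of the Ran cycle, whose gradient gives transport its direction, none was called with Nup210 shRNA (median 0.08) and 3 fell with Mef2c shRNA (median -0.16): Ran by 0.28, Ranbp1 by 0.25 and Rangap1 by 0.16. Of 6 genes of lamin processing, with medians of 0.05 with Nup210 shRNA and -0.02 with Mef2c shRNA, none was called with Nup210 shRNA and Zmpste24, the protease that finishes prelamin A, fell by 0.24 with Mef2c shRNA (adjusted p = 5.1e-04).

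Markers of dividing cells were also lower in the Mef2c shRNA arrays. Of 11 measured mitosis genes 9 fell and none rose with Mef2c shRNA, beside 6.42% and 4.34% of all genes, with a median of -0.70, and none was called with Nup210 shRNA (median -0.03). Of 12 S phase genes 10 fell with Mef2c shRNA, with a median of -0.30, and 1 rose and 1 fell with Nup210 shRNA (median 0.07). The mean of the mitosis list, relative to the control mean, ran from -0.16 to 0.07 over Nup210 shRNA arrays, from -0.77 to -0.49 over Mef2c shRNA arrays and from -0.20 to 0.23 over control arrays. For the pore members the same mean ran from -0.02 to 0.08 over Nup210 shRNA arrays, from -0.07 to -0.04 over Mef2c shRNA arrays and from -0.02 to 0.03 over control arrays. In both lists the Mef2c shRNA arrays lay below all controls and the Nup210 shRNA arrays overlapped them. The part of dividing cells in the pore and lamin falls was not tested, and in bulk RNA fewer cells of a type and less RNA per cell cannot be told apart.

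Myotube markers moved too, with 4 of 10 lower and none higher with Nup210 shRNA (median -0.11) and 3 of 10 lower and none higher with Mef2c shRNA (median -0.07), beside 5.11% and 6.42% of all genes lower. Their mean ran from -0.21 to -0.08 over Nup210 shRNA arrays, from -0.25 to -0.03 over Mef2c shRNA arrays and from -0.07 to 0.04 over control arrays. Of 8 markers of undifferentiated myoblasts 2 rose with Nup210 shRNA (median 0.10), and 1 rose and 3 fell with Mef2c shRNA (median -0.06). Their mean ran from 0.09 to 0.31, from -0.08 to -0.01 and from -0.10 to 0.09 over Nup210 shRNA, Mef2c shRNA and control arrays. The part of these shifts in the members' differences was not tested.

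**Figure D5:**
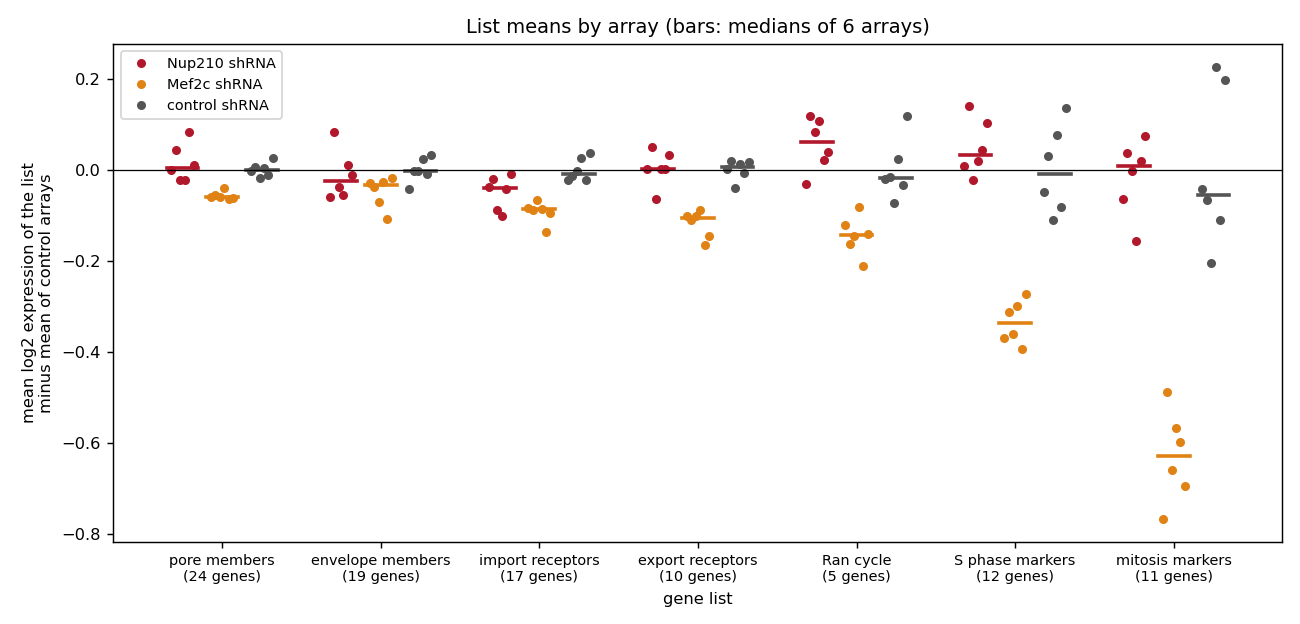
Mean log2 expression of a gene list on each array minus its mean over control arrays (vertical axis), for 7 lists, with Nup210 shRNA (red), Mef2c shRNA (orange) and control shRNA (grey) from left to right and bars at the medians of 6 arrays. The Mef2c shRNA arrays lie below all controls for every list shown except the envelope members, at -0.07 to -0.04 for pore members and -0.77 to -0.49 for mitosis genes.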

How the data were processed

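The deposited values are log2 expression per probe set for 18 one-colour arrays, made with RMA and Partek per the submitters' processing notes; no version, setting or genome build is given in the sources used here. RMA equalises array distributions and compresses differences of dim genes. Probe sets were named from the platform annotation: 23521 had 1 gene symbol, 1814 several and 16010 none, and only the first were used. Each of 22180 genes was read from its brightest probe set; 1082 genes had more than 1.

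All 18 arrays were fitted in limma 3.58.1 (R 4.3.3), each group having its own mean and no covariate being used, on 15 residual degrees of freedom, with Benjamini-Hochberg adjustment over all 22180 genes in each of 3 comparisons. The fit was run on simulated data with planted differences and independent noise on each array, as a check of the code. That run gives no support to the calls reported here. The number of arrays limits the precision: the median SE of a difference was 0.0799. Array correlations were 0.9907 to 0.9954 within a group and 0.9891 to 0.9943 between groups, so no 2 of the 18 arrays held identical values. No scan date or batch was given in the sources used here.

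The members and lists were chosen with earlier results of these data known. Members called in any comparison, and the largest difference of each subcomplex, are given in full; of each related list the called genes with the largest differences, at most 4 a comparison, are named, some with their values in the other comparisons. Promoter windows are RefSeq's (GRCm38.p6). Also run were fits with a block for the replicate number, with the compared groups alone, renewed quantile normalization, median centring, dim genes left out, the mean of all probe sets, a trended robust prior, array weights, an adjusted p under 0.01, an unequal-variance test and each array left out. Leaving out Nup210 shRNA arrays 2, 4 and 5 (array weights under 0.75) or control arrays 4 and 6 was added after seeing the data. Control arrays 4 and 6 did not have low weights (0.94 and 1.04). They had the highest means of the mitosis list among the controls (0.23 and 0.20).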

Additional observations from a re-analysis of the deposited data

Results flagged for a closer look

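In each group of 6 arrays the gap between the most extreme array and its nearest neighbour was divided by the range of the group. It passed Dixon's 95% critical value in 3 of 129 gene and group combinations, where chance passes about 1 in 20. Seh1l on Nup210 shRNA array 5 stood at 9.917, above 9.727 to 9.795 on the other 5 (ratio 0.644). Ndc1 on Mef2c shRNA array 6 stood at 8.233, above 8.099 to 8.144 (0.668). Ankle2 on control array 3 stood at 8.899, above 8.77 to 8.818 (0.628).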

How the results depend on the processing

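At an adjusted p under 0.01, 2 members were called for Nup210 shRNA, 6 for Mef2c shRNA and 6 between them, in place of 6, 10 and 12. All-gene calls at that threshold were 904, 1302 and 1899 of 22180, in place of 1809, 2386 and 3113. With dim genes left out, so that fewer genes were tested, 18 members were called between the shRNA groups, beside 3632 of 13376 genes. Without Nup210 shRNA arrays 2, 4 and 5, 1 member (Syne3) was called for Nup210 shRNA, beside 563 of 22180 genes. Fewer arrays also weaken the test. The differences that lost their call there were -0.169 (Seh1l), 0.17 (Aaas), -0.174 (Gle1), -0.237 (Lmnb2) and 0.20 (Syne1). The pore median for Mef2c shRNA was -0.0301 on renewed quantile normalization and -0.0815 after median centring (-0.0548 as reported), beside 0.0102 and -0.00632 over all genes (0.0204 as reported). Centring moves all genes of an array by 1 constant, which gives the second shift; the cause of the first was not tested. Syne1 turned to -0.0446 for Nup210 shRNA with the mean of all probe sets. Leaving out each array gave 4 to 6 members for Nup210 shRNA, 10 to 11 for Mef2c shRNA and 9 to 13 between them. All-gene calls then ran from 1406 to 1853, from 1926 to 2489 and from 2709 to 3043. Of 28 gene results 12 kept their call in every alternative run and 16 lost it in at least 1. The labels number the arrays but do not say that the numbers pair them, and the main fit did not pair them. Same-numbered arrays varied together in part: 11 of 18 correlations of their deviations from the group mean passed 0.1 (lowest -0.232, highest 0.45). Of 18 arrays, 12 correlated best with arrays of their own number. The main fit leaves any such shared part in the spread between arrays. With the replicate block 7, 10 and 13 members were called, beside 2221, 2862 and 3528 of 22180 genes. Of the 28 gene results Nup50 alone lost its call with the block (between the shRNA groups, adjusted p = 0.0538). Brightness limits Nup188, Nup210 and the dimmer Syne1 probe sets.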

Other observations

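Envelope genes outside the member list also differed. Of 5 genes listed as muscle envelope proteins, none rose and 3 fell with Nup210 shRNA, and 3 rose and 2 fell with Mef2c shRNA, with medians of -0.22 with Nup210 shRNA and 0.18 with Mef2c shRNA. Over all genes 3.05% rose and 5.11% fell with Nup210 shRNA and 4.34% and 6.42% with Mef2c shRNA, and the median was 0.02 in each. Klhl31 differed by -0.28 with Nup210 shRNA (adjusted p = 0.00109) and by 0.18 with Mef2c shRNA (adjusted p = 0.0221), and by -0.46 between them (adjusted p = 3.3e-06). Wfs1, the membrane protein wolframin, rose by 0.44 with Mef2c shRNA (adjusted p = 0.00103) and differed from control by -0.08 with Nup210 shRNA. Popdc2 fell by 0.34 with Nup210 shRNA and by 0.43 with Mef2c shRNA, and Plpp7 by 0.22 and 0.28. Tmem38a, a cation channel of the endoplasmic reticulum, rose by 0.19 with Mef2c shRNA (adjusted p = 0.0478).

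Of 9 genes of envelope sealing, with medians of 0.02 and 0.04 with Nup210 and Mef2c shRNA, 1 was called in each comparison with control: Vps4b, the ATPase that takes apart ESCRT filaments, fell by 0.27 with Nup210 shRNA (adjusted p = 1.6e-04), and the filament gene Chmp2b fell by 0.20 with Mef2c shRNA (adjusted p = 0.00385). Of 10 other envelope membrane proteins 2 rose and 1 fell with Nup210 shRNA, and 2 rose and 2 fell with Mef2c shRNA, with medians of -0.01 with Nup210 shRNA and 0.07 with Mef2c shRNA. The torsins Tor2a and Tor1b rose by 0.26 and 0.15 with Nup210 shRNA, Tmem120b and Tmem214 rose by 0.27 and 0.16 with Mef2c shRNA, Tor3a fell by 0.21 with Mef2c shRNA, and Dpy19l1 fell by 0.17 and by 0.15 with Nup210 and Mef2c shRNA. Of 6 further nucleoporins and pore-associated genes, Nup210 among them, none was called against control and Nup210 alone was called between the shRNA groups, lower with Nup210 shRNA.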
